A study of Mus musculus with 12 samples.

Results

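Cytokine receptor genes were examined in type 1 conventional dendritic cells (cDC1s) sorted from B16F10 melanomas. The 10 members are the chains of type I and type II cytokine receptors *Il4ra*, *Il2rg*, *Ifngr1*, *Ifngr2*, *Ifnar1*, *Ifnar2*, *Csf2ra*, *Csf2rb*, *Il10ra* and *Il6st*. They were taken by gene symbol from the 11264 genes of the deposited table, and all 10 were found there and passed the filter on low values. *Il4ra* was selected on its call in the comparison of WT FL with WT control, and the other chains were listed with results of these libraries known. For that comparison the values of the members are therefore given as a description, without a p.

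The libraries came from 4 groups of 3, which combine genotype and plasmid. *Clec9a* gfp/gfp FL are mice deficient in DNGR-1, the product of *Clec9a*, in which a sequence for green fluorescent protein stands in the *Clec9a* locus, and which received a plasmid encoding the dendritic cell growth factor Flt3L (FL). *Clec9a* gfp/gfp control are mice of the same genotype with an empty plasmid. WT FL and WT control are wild-type mice with the same 2 plasmids. All mice were on the C57BL/6 background, were 7 to 10 weeks old, were injected with the plasmid hydrodynamically 1 day ahead of the B16F10 cells, and gave their tumors on day 13. Every library was a pool of 2 to 3 mice, so that the spread between libraries is a spread between pools and not between animals. The cells were CD11c-enriched and sorted as CD103+ CD24+ CD11b- cells, and the analysis of their transcriptome addressed how FL and the lack of DNGR-1 act on tumor cDC1s.

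Cytokine receptors of these families have no kinase of their own. Ligand brings 2 or more chains together, the Janus kinases (JAKs) bound to the chains phosphorylate each other and the receptor, and signal transducers and activators of transcription (STATs) are recruited, phosphorylated and sent to the nucleus. Chains are shared, so that a cell's response to a ligand depends on having each partner. In dendritic cells GM-CSF and interferons act on survival, maturation and antigen presentation, IL-4 drives differentiation in culture, and IL-10 restrains maturation.

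*Clec9a*, the targeted gene, was at 1.36, 0.269 and 0.789 CPM (counts scaled by TMM to 1 M of effective library size) in *Clec9a* gfp/gfp FL libraries and at 0.510, 1.31 and 10.9 CPM in *Clec9a* gfp/gfp control libraries. It stood at 328, 388 and 329 CPM in WT FL libraries and at 371, 351 and 288 CPM in WT control libraries, so the gene was far lower in every *Clec9a* gfp/gfp library than in every WT library. *Clec9a* gfp/gfp control 3 was the highest of the *Clec9a* gfp/gfp libraries, from 33 counts, and the source of these counts was not tested. The effective library size lay between 14.45 and 25.87 M counts in 11 libraries and at 3.06 M in *Clec9a* gfp/gfp control 3, where the members rested on 96 (*Il6st*) to 1353 (*Csf2rb*) counts. The 10 cDC1 markers, *Xcr1* and *Batf3* among them, were all in the table and summed to between 9934 and 11120 CPM in every library. Single markers were less even in part. *Batf3* ran from 34.11 to 127.1 CPM, *Itgae* from 425 to 1256 and *Wdfy4* from 359.8 to 1339, while *Irf8* stayed between 2588 and 3474. T and NK cell markers were represented by *Cd4* alone, at no more than 3.16 CPM, and none of the B cell or neutrophil markers was in the table. Of 7 melanoma markers 6 were in the table. They summed to 111.6 CPM in *Clec9a* gfp/gfp control 3 and to between 16.14 and 67.25 CPM in the other libraries. The source of these transcripts was not tested. On the first principal component, which held 32.9% of the variance, WT control 1 and WT control 3 stood apart at 50 and 54.9, and *Clec9a* gfp/gfp FL 3 at −46.3, against −27.3 to 11.9 for the others. The study states that the sequencing was done in 3 independent experiments, and the labels do not say which libraries belong to which.

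All 10 receptor genes were expressed in the cDC1s, over a wide range. Per kb of exon, which allows genes to be compared, *Ifngr1*, the chain that binds interferon-γ, had the highest mean in all 4 groups, with 148 ± 14.7 CPM per kb in *Clec9a* gfp/gfp FL, 124 ± 18.7 in *Clec9a* gfp/gfp control, 135 ± 11 in WT FL and 146 ± 43.8 in WT control (SD, n = 3 each). *Il6st*, which encodes gp130, the signaling chain shared by receptors of the IL-6 family, had the lowest, with 5.48 ± 2.72, 2.28 ± 0.527, 4.67 ± 1.61 and 1.85 ± 0.448 CPM per kb in the same order of groups. *Il4ra* was the fifth gene of 10 in *Clec9a* gfp/gfp FL libraries with 79.1 ± 33.7 CPM per kb, where its values overlapped those of *Il2rg* above it and lay above all of *Ifnar2* below it. In *Clec9a* gfp/gfp control libraries it was the seventh with 43.2 ± 3.23, in WT FL libraries the fourth with 63.7 ± 1.78 and in WT control libraries the eighth with 21 ± 9.4 CPM per kb, overlapping its lower neighbor in both WT groups.

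**Figure D1:**
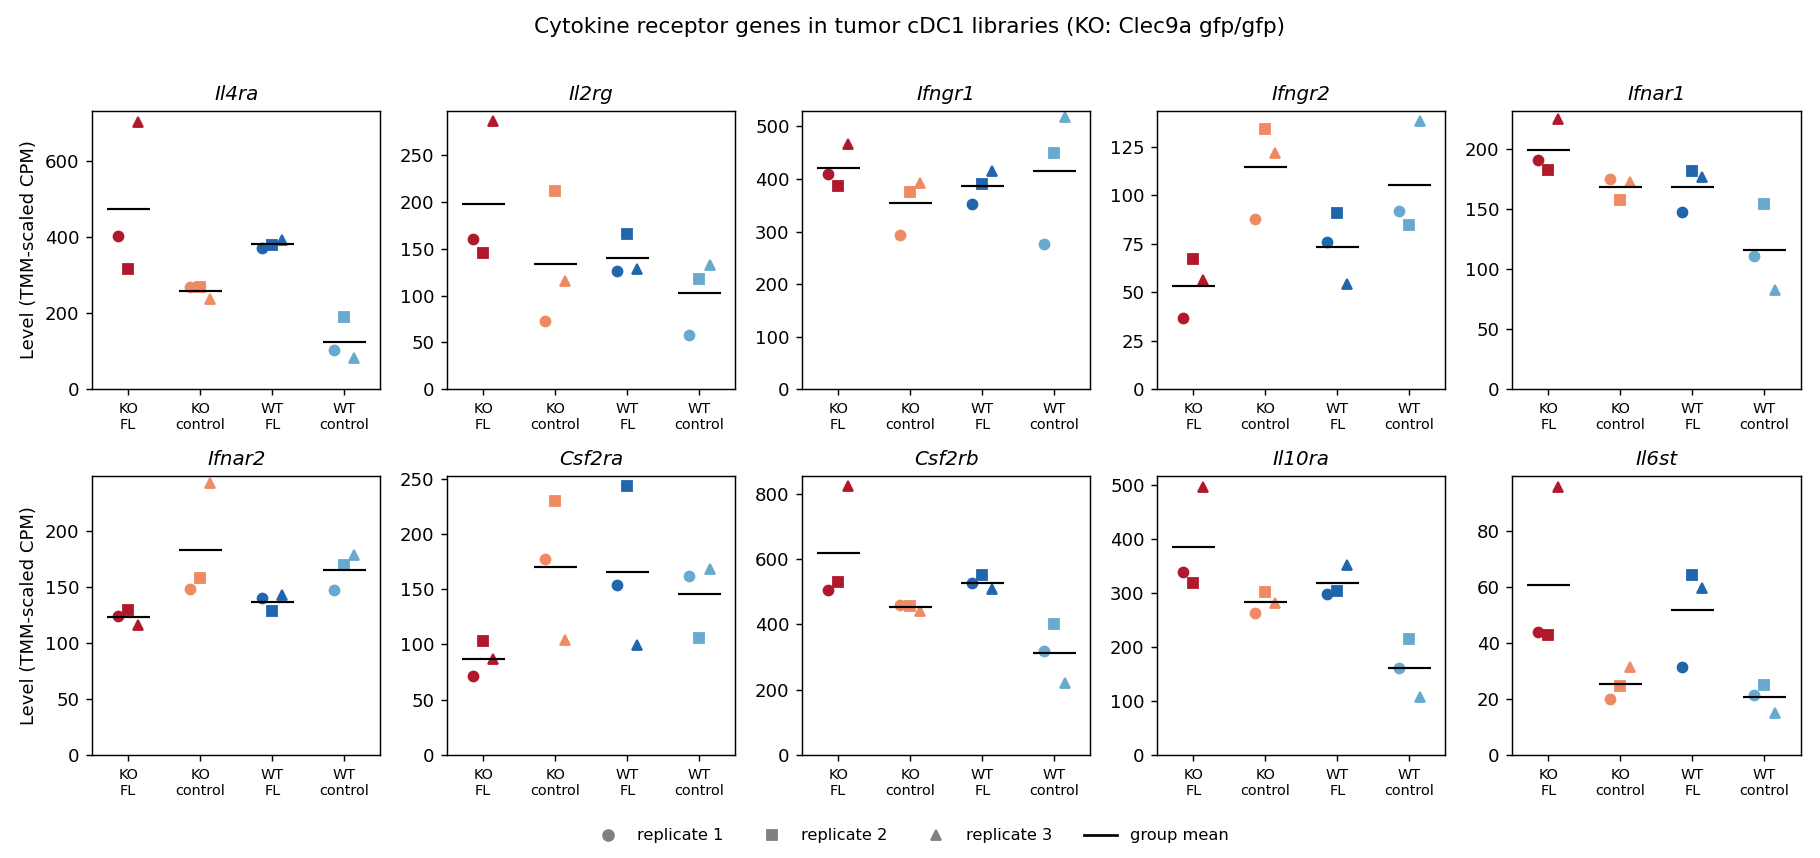
Levels of the 10 receptor genes in each library, in TMM-scaled CPM on axes that start at 0, with the group mean as a bar and the replicate number as the symbol (KO, *Clec9a* gfp/gfp). *Il4ra* lies between 317.2 and 702.4 CPM in *Clec9a* gfp/gfp FL and between 83.65 and 190.0 CPM in WT control. The mean of *Ifngr2* is lowest in *Clec9a* gfp/gfp FL, where its values overlap those of WT FL.

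The promoters shown are those of *Il4ra*, which chose the family, and of *Ifngr2* and *Il6st*, the members that moved in opposite directions under FL in *Clec9a* gfp/gfp cells. They are RefSeq sequences on GRCm38.p6 of 300 bases, from 250 before to 50 after the first transcribed base, on the plus strand, and 8 of the 10 members have such an entry. The windows are chr7:125552021-125552320 for *Il4ra*, chr16:91546809-91547108 for *Ifngr2* and chr13:112463820-112464119 for *Il6st*. For *Il4ra* the annotated gene begins at 125552120, upstream of the start used for the window. Its marked GC box therefore lies inside the annotated gene. Capitals mark motifs found on either strand.
Il4ra: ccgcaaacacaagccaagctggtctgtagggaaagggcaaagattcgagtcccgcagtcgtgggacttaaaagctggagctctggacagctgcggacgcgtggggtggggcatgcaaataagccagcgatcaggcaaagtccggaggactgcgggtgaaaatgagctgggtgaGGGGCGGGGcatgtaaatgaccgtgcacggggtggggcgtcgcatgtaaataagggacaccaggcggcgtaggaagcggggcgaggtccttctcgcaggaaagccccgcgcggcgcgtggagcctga
Ifngr2: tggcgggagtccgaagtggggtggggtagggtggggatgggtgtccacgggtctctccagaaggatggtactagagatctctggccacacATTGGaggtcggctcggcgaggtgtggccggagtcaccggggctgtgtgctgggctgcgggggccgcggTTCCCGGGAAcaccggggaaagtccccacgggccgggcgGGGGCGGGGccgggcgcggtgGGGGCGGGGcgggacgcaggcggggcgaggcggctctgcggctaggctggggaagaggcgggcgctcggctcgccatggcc
Il6st: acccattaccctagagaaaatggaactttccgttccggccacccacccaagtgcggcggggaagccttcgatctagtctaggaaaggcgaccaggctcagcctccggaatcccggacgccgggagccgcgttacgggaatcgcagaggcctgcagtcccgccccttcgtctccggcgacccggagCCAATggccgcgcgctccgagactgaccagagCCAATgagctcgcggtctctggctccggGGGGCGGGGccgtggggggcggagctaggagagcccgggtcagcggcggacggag

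The motifs searched were the STAT motif TTCNNNGAA, the longer form TTCNNNNGAA preferred by STAT6, the core GAAANNGAAA of the interferon-stimulated response element, the CCAAT box (CCAAT) and the GC box (GGGGCGGGG). None of them contains another, and they occurred in 8.3%, 6.95%, 3.44%, 37.4% and 11.4% of the 32851 promoter windows of the same length. *Ifngr2* held 1 match to the STAT6 form, 91 bases before the start, with 1 CCAAT box and 2 GC boxes. *Il6st* held 2 CCAAT boxes and 1 GC box, and *Il4ra* held 1 GC box. Among the members that are not printed, *Ifnar1* and *Ifnar2* each held 1 match to TTCNNNGAA, and none of the 8 members with an entry held GAAANNGAAA. The letters are a description of these windows, since no binding was measured.

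*Il4ra* encodes the chain that binds IL-4, and that forms the IL-4 receptor with the product of *Il2rg* or, for IL-13 as well, with that of *Il13ra1*. The gene lies at chr7:125552120-125579474 on the plus strand (GRCm38), where its exons sum to 6.002 kb, and a predicted gene, *Gm44876*, overlaps it. *Il4ra* was at 403.9, 317.2 and 702.4 CPM in *Clec9a* gfp/gfp FL libraries, against 270.5, 270.8 and 237.1 CPM in *Clec9a* gfp/gfp control libraries. The groups did not overlap, with *Clec9a* gfp/gfp FL 3 well above the rest. The log2 fold change was 0.789 ± 0.286 (SE), and it did not pass the test over all genes (limma, Benjamini-Hochberg adjusted p = 0.161). Without *Clec9a* gfp/gfp FL 3 it was 0.465 (adjusted p = 0.606), and without *Clec9a* gfp/gfp FL 2 it was 1.04 and passed (adjusted p = 0.0822). It also passed when only the groups compared were fitted (adjusted p = 0.0839), with sample quality weights (0.628, adjusted p = 0.0975) and without WT control 2, a library outside the comparison that adds to the estimate of the spread (adjusted p = 0.0674).

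In WT mice *Il4ra* was at 372.7, 379.8 and 393.7 CPM in FL libraries and at 104.1, 190.0 and 83.65 CPM in control libraries, a log2 fold change of 1.68 and the values that chose the gene. Mean levels were in the order *Clec9a* gfp/gfp FL (474.5 ± 202 CPM), WT FL (382.0 ± 10.7 CPM), *Clec9a* gfp/gfp control (259.5 ± 19.4 CPM) and WT control (125.9 ± 56.5 CPM). Only the first pair of neighbors in this order overlapped, since the WT FL values fell inside the range of the *Clec9a* gfp/gfp FL values. In the absence of FL every *Clec9a* gfp/gfp library exceeded every WT library, by 1.12 on the log2 scale. No p is given for this difference, because its WT control libraries also entered the choice of the gene. With WT control 2 as the only WT control library, a setting chosen after the data were seen because WT control 1 and 3 stood apart, it was 0.444, and the difference of WT FL from WT control was 1.00.

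*Il2rg*, the common γ chain of the receptors for IL-2, IL-4, IL-7, IL-9, IL-15 and IL-21, was at 160.0, 145.4 and 285.5 CPM in *Clec9a* gfp/gfp FL and at 72.7, 211 and 115.7 CPM in *Clec9a* gfp/gfp control libraries. It was at 126.3, 166 and 128.2 CPM in WT FL and at 58.2, 117.6 and 132.7 CPM in WT control libraries. The groups overlapped in both pairs. The log2 fold change under FL was 0.630 ± 0.362 (SE) in *Clec9a* gfp/gfp (limma, adjusted p = 0.421) and 0.516 in WT. The gene lies on chromosome X, where a predicted gene, *Gm20489*, overlaps it.

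*Ifngr2*, the signal-transducing chain of the interferon-γ receptor, fell with FL in *Clec9a* gfp/gfp cDC1s. It was at 36.98, 67.01 and 56.16 CPM in *Clec9a* gfp/gfp FL libraries, against 87.77, 134.3 and 121.9 CPM in *Clec9a* gfp/gfp control libraries, so that all FL values lay under all control values. The log2 fold change was −1.11 ± 0.271 (SE), a fold of 0.464 (limma, adjusted p = 0.0371). In these bulk samples fewer cells with a transcript and less of it per cell cannot be told apart. In WT mice it was at 75.79, 91.02 and 54.21 CPM in FL and at 91.92, 84.98 and 138.6 CPM in control libraries, where the groups overlapped and the log2 fold change was −0.505. The call in *Clec9a* gfp/gfp was lost without *Clec9a* gfp/gfp FL 1 (log2 fold change −0.869, adjusted p = 0.176), without *Clec9a* gfp/gfp FL 3 (−1.16, adjusted p = 0.13), without *Clec9a* gfp/gfp control 2 (−0.983, adjusted p = 0.159) and without *Clec9a* gfp/gfp control 3 (−1.05, adjusted p = 0.134).

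Its partner *Ifngr1* was not called. It was at 408.8, 386.5 and 467.3 CPM in *Clec9a* gfp/gfp FL and at 293.0, 375.3 and 392.8 CPM in *Clec9a* gfp/gfp control libraries, and at 352.2, 390.2 and 414.5 CPM in WT FL and 276.1, 450.0 and 517.6 CPM in WT control libraries. The groups overlapped in both pairs, with log2 fold changes of 0.257 ± 0.218 (SE) in *Clec9a* gfp/gfp (limma, adjusted p = 0.63) and −0.0582 in WT, a value that turned positive when the columns were scaled to equal totals (0.0665). The ratio of *Ifngr2* to *Ifngr1* within a library, which does not depend on how libraries are scaled, was 0.0684, 0.131 and 0.0908 per kb in *Clec9a* gfp/gfp FL and 0.226, 0.270 and 0.235 in *Clec9a* gfp/gfp control libraries. In WT FL it was 0.163, 0.176 and 0.0988, and in WT control libraries 0.252, 0.143 and 0.202. The ratio separated the *Clec9a* gfp/gfp groups and overlapped between the WT groups.

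*Ifnar1* and *Ifnar2* encode the receptor for type I interferons, which all of these interferons share. *Ifnar1* was at 190.8, 181.8 and 224.3 CPM in *Clec9a* gfp/gfp FL and at 174.5, 157.6 and 172.2 CPM in *Clec9a* gfp/gfp control libraries, and at 147.7, 181.3 and 176.2 CPM in WT FL and 111.1, 154.0 and 82.19 CPM in WT control libraries. *Ifnar2*, the chain with the higher affinity for ligand, was at 124.2, 129.2 and 115.8 CPM in *Clec9a* gfp/gfp FL and at 148.6, 158.0 and 243.0 CPM in *Clec9a* gfp/gfp control libraries, and at 140.1, 128.4 and 143.0 CPM in WT FL and 147.7, 169.6 and 179.0 CPM in WT control libraries. The *Clec9a* gfp/gfp groups did not overlap for either chain, with FL above control for *Ifnar1* and under it for *Ifnar2*. Neither difference passed the test, with log2 fold changes of 0.238 ± 0.213 (SE; limma, adjusted p = 0.653) for *Ifnar1* and −0.536 ± 0.198 (SE; limma, adjusted p = 0.169) for *Ifnar2*, and in WT they were 0.578 and −0.266. With sample quality weights *Ifnar2* passed in *Clec9a* gfp/gfp (limma, adjusted p = 0.062). The ratio of *Ifnar2* to *Ifnar1* per kb was 1.161, 1.27 and 0.921 in *Clec9a* gfp/gfp FL, against 1.52, 1.79 and 2.52 in *Clec9a* gfp/gfp control libraries, and 1.69, 1.26 and 1.45 in WT FL, against 2.37, 1.97 and 3.89 in WT control libraries, so that FL values lay under control values in both genotypes.

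*Ifnar2*, *Ifnar1* and *Ifngr2* are neighbors in a cluster of 192.8 kb on chromosome 16 (GRCm38), all on the plus strand, at 91372783-91405589, 91485238-91507441 and 91547072-91565623. *Il10rb*, the second chain of the IL-10 receptor, lies between *Ifnar2* and *Ifnar1* and was named after its values were seen. It averaged 90.7 CPM in *Clec9a* gfp/gfp FL, 92.0 in *Clec9a* gfp/gfp control, 88.8 in WT FL and 90.8 in WT control libraries, with a log2 fold change of −0.0118 under FL in *Clec9a* gfp/gfp (limma, adjusted p = 0.985). Of the 4 receptor genes of this cluster only *Ifngr2* was called under FL in *Clec9a* gfp/gfp. Reads of *Ifnar2* and *Il10rb* can be hard to assign, because a predicted read-through gene, *Gm21970*, overlaps both.

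**Figure D2:**
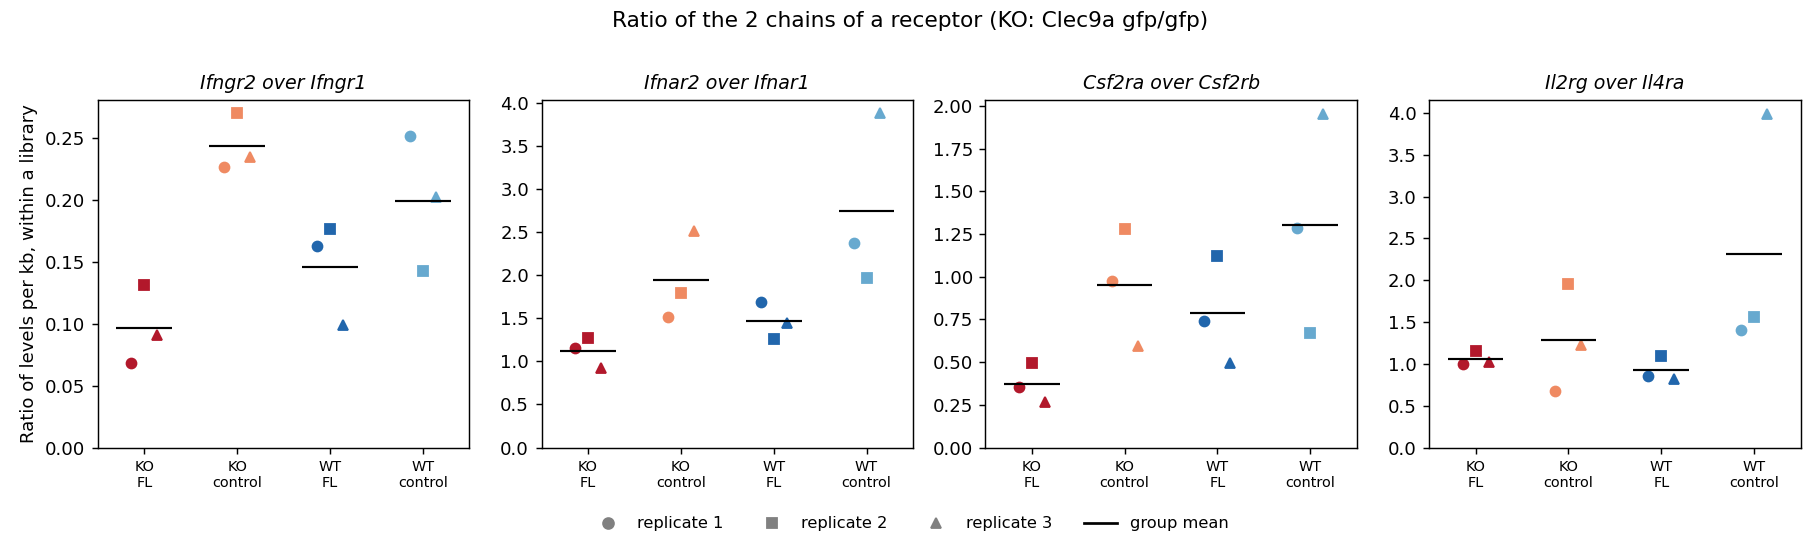
Ratio of the 2 chains of a receptor within each library, from levels per kb of exon, for 4 pairs of members (KO, *Clec9a* gfp/gfp), with the group mean as a bar. In *Clec9a* gfp/gfp FL the ratio of *Ifngr2* to *Ifngr1* reaches at most 0.131 and that of *Csf2ra* to *Csf2rb* at most 0.496, under the lowest *Clec9a* gfp/gfp control values of 0.226 and 0.596.

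*Csf2ra* encodes the chain of the GM-CSF receptor that binds GM-CSF, and *Csf2rb* its signaling chain. *Csf2ra* was at 71.16, 103.4 and 86.76 CPM in *Clec9a* gfp/gfp FL and at 177.3, 229.5 and 103.9 CPM in *Clec9a* gfp/gfp control libraries, where the nearest values of the 2 groups, 103.4 and 103.9, almost met. In WT it was at 153.7, 243.6 and 98.99 CPM in FL and at 162.1, 106.1 and 168.4 CPM in control libraries, with wide overlap. The log2 fold change was −0.902 ± 0.32 (SE; limma, adjusted p = 0.15) in *Clec9a* gfp/gfp, which passed when only the groups compared were fitted (adjusted p = 0.0615) or with sample quality weights (adjusted p = 0.0425), and 0.118 in WT, where it turned negative without WT FL 2 (−0.207) and without WT control 2 (−0.0932). The difference between these FL effects was −1.02, with a 95% interval of −1.98 to −0.0618, and did not pass the interaction test over all genes (limma, adjusted p = 0.528).

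*Csf2rb*, the β chain that GM-CSF shares with IL-3 and IL-5, was at 505.3, 528.4 and 824.1 CPM in *Clec9a* gfp/gfp FL and at 460.4, 455.6 and 441.7 CPM in *Clec9a* gfp/gfp control libraries, and at 526.5, 550.0 and 507.4 CPM in WT FL and 319.4, 400.8 and 218.9 CPM in WT control libraries. FL values exceeded control values in both genotypes, by log2 fold changes of 0.415 ± 0.225 (SE; limma, adjusted p = 0.389) in *Clec9a* gfp/gfp and 0.795 in WT. *Csf2rb2*, a near-identical gene that serves IL-3 in the mouse and may have exchanged reads with *Csf2rb*, averaged 96.1 CPM in *Clec9a* gfp/gfp FL, 70.1 in *Clec9a* gfp/gfp control, 108 in WT FL and 54.6 in WT control libraries. The ratio of *Csf2ra* to *Csf2rb* per kb was 0.357, 0.496 and 0.267 in *Clec9a* gfp/gfp FL, 0.976, 1.28 and 0.596 in *Clec9a* gfp/gfp control, 0.740, 1.12 and 0.494 in WT FL and 1.29, 0.671 and 1.95 in WT control libraries.

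*Il10ra*, the chain that binds IL-10, was at 338.4, 318.2 and 496.5 CPM in *Clec9a* gfp/gfp FL and at 262.2, 302.3 and 281.8 CPM in *Clec9a* gfp/gfp control libraries, and at 297.5, 304.0 and 352.1 CPM in WT FL and 161.2, 214.8 and 107.7 CPM in WT control libraries. FL values exceeded control values in both genotypes, and the log2 fold changes were 0.418 ± 0.235 (SE; limma, adjusted p = 0.406) in *Clec9a* gfp/gfp and 1.03 in WT. The predicted gene *Gm20612* overlaps *Il10ra* on chromosome 9.

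*Il6st* rose with FL in *Clec9a* gfp/gfp cDC1s. It was at 44.01, 42.78 and 95.60 CPM in *Clec9a* gfp/gfp FL libraries, against 19.87, 24.54 and 31.49 CPM in *Clec9a* gfp/gfp control libraries, and at 31.41, 64.39 and 59.66 CPM in WT FL, against 21.53, 24.92 and 15.12 CPM in WT control libraries. FL and control values did not overlap in either genotype. The log2 fold change in *Clec9a* gfp/gfp was 1.15 ± 0.335 (SE), a fold of 2.22 (limma, adjusted p = 0.0772), and in WT it was 1.26. The call was lost with limma-voom (log2 fold change 1.28, adjusted p = 0.1), without *Clec9a* gfp/gfp FL 1 (1.33, adjusted p = 0.12), without *Clec9a* gfp/gfp FL 3 (0.779, adjusted p = 0.386), and without *Clec9a* gfp/gfp control 1 (0.998, adjusted p = 0.166), 2 (1.14, adjusted p = 0.206) or 3 (1.32, adjusted p = 0.121).

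Across the 10 members, FL against control in *Clec9a* gfp/gfp cDC1s gave 1 call higher, *Il6st*, and 1 call lower, *Ifngr2*, at an adjusted p under 0.1. Over all 11255 genes tested 5.46% were called, 2.01% higher and 3.45% lower. The members' median log2 fold change was 0.336 and that of all genes 0.00947. FL and control values did not overlap for 8 of the 10, higher in 5 and lower in 3, against 10.6% of all genes higher without overlap and 13.6% lower. The members were listed with results of these libraries known, so these counts and medians are a description and no independent test. Without *Clec9a* gfp/gfp FL 3 no member was called, and 0.942% of all genes were.

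In WT the comparison that chose *Il4ra* called 4 of the members higher, *Il4ra*, *Il10ra*, *Il6st* and *Csf2rb*, and none lower, where 5.37% of all genes were called higher. The median over the members was 0.547, against −0.00565 over all genes. Groups did not overlap for these 4 members higher and for *Ifnar2* lower, against 12.1% and 10.8% of all genes. Nothing is read from these counts, since they belong to the contrast the choice was made on. The comparison also rested on the WT control libraries that stood apart. Without WT FL 2 or without WT control 3 limma called 0 of the 11255 genes, with 1752 and 1367 genes at an unadjusted p under 0.05. With WT control 2 as the only WT control library 1 gene was called, none of the members, and when the WT libraries were fitted alone 1 member and 0.871% of all genes were.

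**Figure D3:**
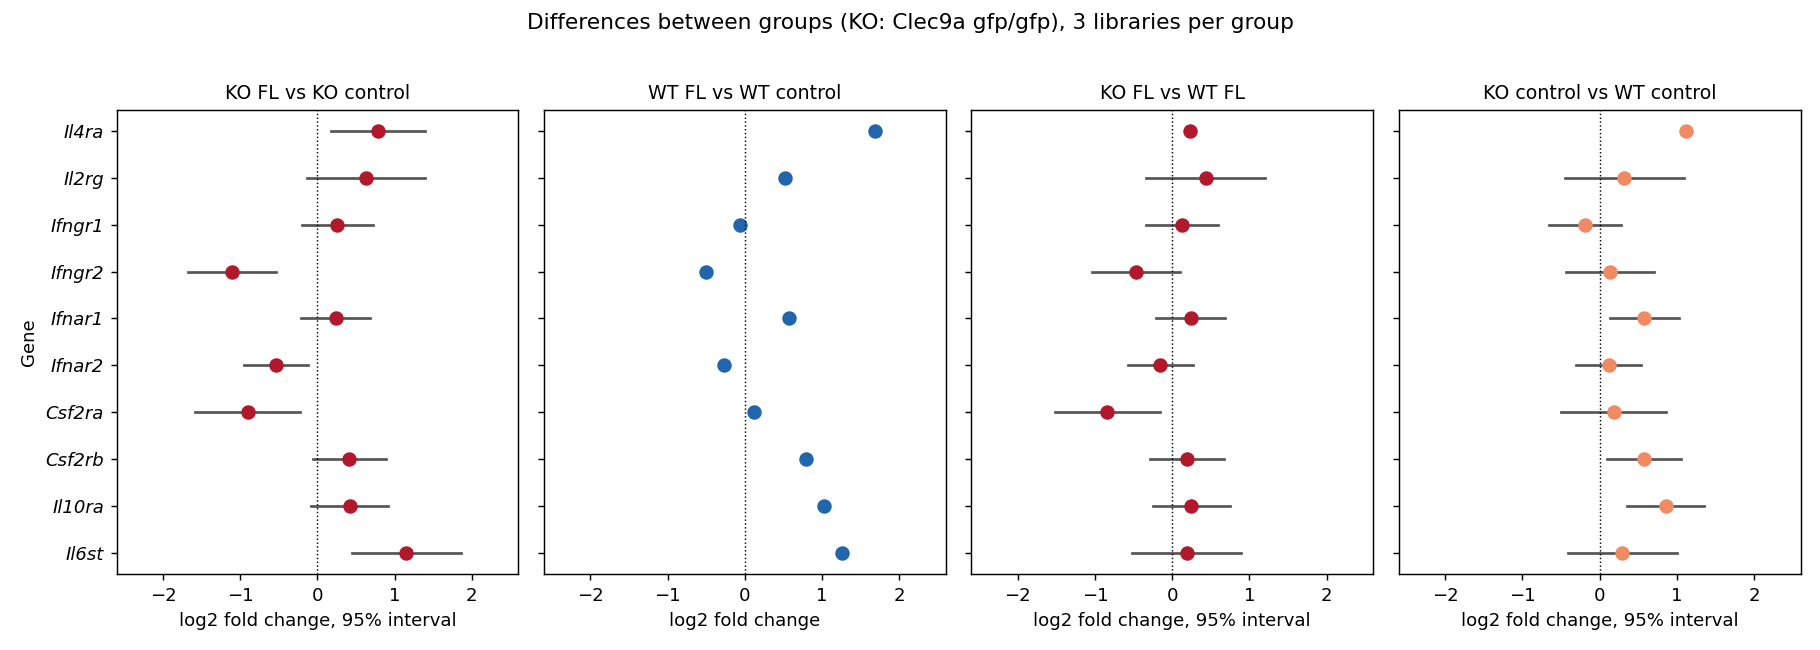
Log2 fold change of each member in 4 comparisons (KO, *Clec9a* gfp/gfp), as a point with its 95% interval from limma, with 3 libraries per group. Points alone are drawn in the comparison of WT FL with WT control, whose values chose *Il4ra*, and for *Il4ra* in the comparisons that share its libraries. *Ifngr2* lies at −1.11 and *Il6st* at 1.15 in the comparison of *Clec9a* gfp/gfp FL with *Clec9a* gfp/gfp control, and between the genotypes under FL all intervals drawn but that of *Csf2ra* include 0.

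Between the genotypes under FL, none of the 9 members beside *Il4ra* passed the test. *Clec9a* gfp/gfp FL against WT FL gave log2 fold changes between −0.839 (*Csf2ra*) and 0.432 (*Il2rg*), with an adjusted p of 1 in limma for each of the 9 beside *Il4ra*, where 3 genes in all, 0.0267%, were called. For *Csf2ra* the unadjusted p was 0.0183, the only one of the members under 0.05, and its interval ran from −1.52 to −0.161. *Il4ra* differed by 0.230, and by −0.0934 without *Clec9a* gfp/gfp FL 3, values without a test because the WT FL libraries entered the choice of the gene. For *Il6st* the difference of 0.189 had an interval of −0.519 to 0.896 and turned negative without *Clec9a* gfp/gfp FL 3 (−0.185), and for *Csf2rb* that of 0.194 turned to −0.0303. Only the *Ifnar1* values of the 2 groups did not overlap, with the *Clec9a* gfp/gfp FL values higher, as in 4.53% of all genes, and no member was lower without overlap, against 5.36% of all genes.

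Without FL, *Clec9a* gfp/gfp control against WT control gave 9 positive log2 fold changes of 10, and no call among the 9 members beside *Il4ra*, with 0.0267% of all genes called. Beside the 1.12 of *Il4ra* given above, these were 0.856 for *Il10ra*, 0.579 for *Ifnar1* and 0.573 for *Csf2rb*, with adjusted p values of 0.188, 0.190 and 0.198 in limma. These 4 genes did not overlap between the groups, against 8.23% of all genes higher without overlap. The members were listed with results of these libraries known, so their values in this comparison are a description and no independent test. Without WT control 2 *Il10ra*, *Ifnar1* and *Csf2rb* were called (limma, adjusted p between 0.0164 and 0.0407), in a fit in which 20.7% of all genes were called. With WT control 2 as the only WT control library the log2 fold changes were 0.389 for *Il10ra*, 0.124 for *Ifnar1* and 0.175 for *Csf2rb*.

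*Clec9a* gfp/gfp FL against WT control combined both differences. Its WT control libraries entered the choice of *Il4ra*, and the other members were listed with results known. The calls of members in this comparison are therefore a description and no independent test. Here *Il2rg*, *Ifnar1*, *Csf2rb*, *Il10ra* and *Il6st* were called higher, by log2 fold changes of 0.949, 0.817, 0.989, 1.27 and 1.45 (limma, adjusted p between 0.0087 and 0.0885), *Il4ra* lay 1.91 higher, and *Ifngr2* was called lower by −0.972 (limma, adjusted p = 0.032). Of all genes 12.8% were called higher and 9.85% lower. With WT control 2 as the only WT control library none of the members and 0.0977% of all genes were called, and *Il4ra* lay 1.23 higher. Without *Clec9a* gfp/gfp FL 3, where 4.37% of all genes were called, the calls of *Ifnar1*, *Ifngr2*, *Il2rg* and *Il6st* were lost, at adjusted p values of 0.121, 0.101, 0.33 and 0.101. Without WT control 3, where 5.64% of all genes were called, those of *Ifnar1*, *Ifngr2* and *Il2rg* were lost, at 0.119, 0.16 and 0.133. *Ifngr2* was also lost without *Clec9a* gfp/gfp FL 1 (0.129), and *Il2rg* without *Clec9a* gfp/gfp FL 1 (0.129), *Clec9a* gfp/gfp control 3 (0.106), WT FL 1 (0.103) or WT control 1 (0.301). None of the 9 members beside *Il4ra* passed the interaction test of a different FL effect in the 2 genotypes, in which 0% of genes were called, 1027 genes had an unadjusted p under 0.05, and limma-voom called 0 genes as well. The interaction of *Il4ra*, −0.893, uses the libraries that chose the gene and is given without a test.

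The genes whose levels ran most alike to *Il4ra* over the 12 libraries, among 8717 genes with a mean of at least 5 CPM, were *Adam8* (Pearson's r of 0.990 on the log2 scale), *Synj1* (0.977), *Tnpo1* (0.976), *Vps18* (0.974) and *Il10ra* (0.972), itself a member. *Adam8*, a membrane metalloprotease, averaged 1226 CPM in *Clec9a* gfp/gfp FL, 802 in *Clec9a* gfp/gfp control, 1035 in WT FL and 501 in WT control libraries. *Csf2rb* followed at 0.968 and *Ifnar1* at 0.917, while *Ifngr2* ran the other way at −0.642 and *Ifnar2* at −0.567. From the highest r down these 2 ranked 9678 and 9153 among 11254 genes tested, so many genes had a lower r. The 12 points share their scaling and the 3 libraries that stand apart on the first principal component, and these are descriptions of likeness.

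**Figure D4:**
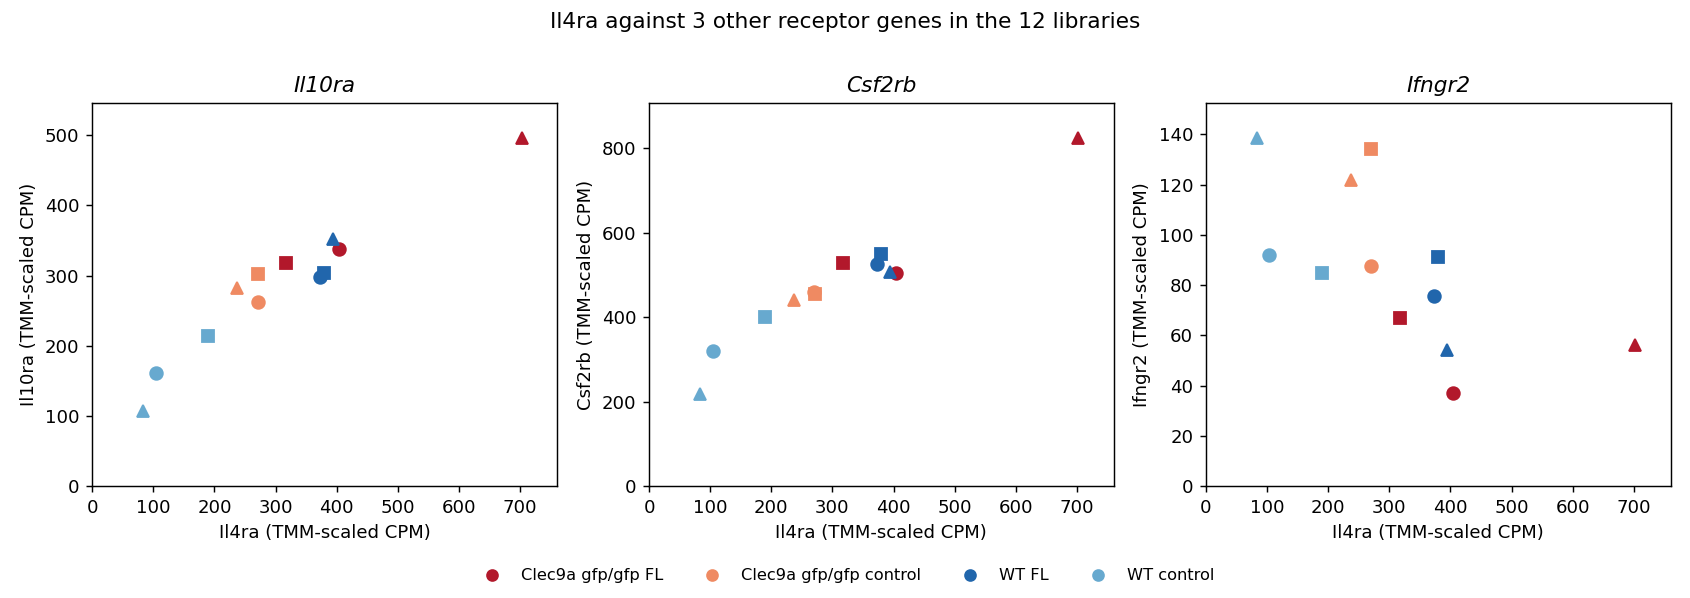
*Il4ra* on the horizontal axis against *Il10ra*, *Csf2rb* and *Ifngr2* on the vertical axes, in TMM-scaled CPM in each of the 12 libraries, with color for the group and the symbol for the replicate number (circle 1, square 2, triangle 3). *Il10ra* and *Csf2rb* climb with *Il4ra* up to *Clec9a* gfp/gfp FL 3 at 702.4 CPM of *Il4ra*, whereas *Ifngr2* is highest, at 138.6 CPM, in the WT control library with the lowest *Il4ra* value.

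Markers of mature dendritic cells, such as *Ccr7* and *Fscn1*, were high in some of the same libraries. All 12 were in the table, and 4 of them were called higher and none lower under FL in *Clec9a* gfp/gfp. Of all genes 2.01% were called higher and 3.45% lower there. Without *Clec9a* gfp/gfp FL 3 the calls over all genes fell from 614 to 106. The sum of the 12 markers was 6090, 5842 and 12980 CPM in *Clec9a* gfp/gfp FL 1, 2 and 3. In *Clec9a* gfp/gfp control libraries it was 3302, 4502 and 4025 CPM. In WT it was 5617, 6814 and 4494 CPM with FL and 2483, 4276 and 4398 CPM in control libraries. *Clec9a* gfp/gfp FL 3, the highest library for *Il4ra*, *Il2rg*, *Csf2rb*, *Il10ra* and *Il6st*, also had the highest sum of these markers, though not the highest value of each: *Fscn1* was at 166.6 CPM there and at 306.2 CPM in WT FL 2. Of the 13 markers of macrophages and monocytes measured, 4 were called higher and none lower under FL in *Clec9a* gfp/gfp, and the 13 summed to between 1640 and 2056 CPM in *Clec9a* gfp/gfp FL, 1284 and 1648 in *Clec9a* gfp/gfp control, 1477 and 1777 in WT FL and 1617 and 2297 in WT control libraries. Of 8 markers of fibroblasts and endothelium 5 were in the table, none was called under FL in *Clec9a* gfp/gfp although all 5 had a positive log2 fold change (median 0.767), and they summed to 47.14, 59.18 and 89.87 CPM in *Clec9a* gfp/gfp FL, against 41.64, 22.92 and 55.97 CPM in *Clec9a* gfp/gfp control libraries, and to 52.48, 58.58 and 49.26 CPM in WT FL, against 41.29, 39.64 and 45.51 CPM in WT control libraries. The part of maturation or of other cells in the receptor values was not tested.

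Of 36 other chains of these receptor families, 19 were in the table. Under FL in *Clec9a* gfp/gfp cDC1s 3 were called higher and none lower, and the median log2 fold change was 0.459. Of all genes 2.01% were called higher and 3.45% lower. *Il15ra*, which presents IL-15 to neighboring cells, was at 103.9, 98.04 and 143.4 CPM in *Clec9a* gfp/gfp FL and at 32.26, 77.27 and 41.94 CPM in *Clec9a* gfp/gfp control libraries, without overlap (log2 fold change 1.25; limma, adjusted p = 0.0448). *Il23r* (1.87; adjusted p = 0.0411) and *Il7r* (1.40; adjusted p = 0.0862), which pair with the IL-12 receptor β1 chain and the common γ chain, also rose in limma, to means of 6.87 and 6.01 CPM in *Clec9a* gfp/gfp FL, against 1.17 and 1.72 CPM in *Clec9a* gfp/gfp control libraries. In WT 3 of the 19 chains were called higher and none lower, with a median of 0.453, where 5.37% of all genes were called higher.

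All 11 genes for JAKs and STATs were in the table, and in *Clec9a* gfp/gfp FL against control 10 of them had a positive log2 fold change, with a median of 0.420. Only *Stat4*, which carries signals of IL-12 and type I interferon, passed the test, where 2.01% of all genes were called higher. It was at 212.6, 177.6 and 403.8 CPM in *Clec9a* gfp/gfp FL and at 45.77, 140.9 and 60.87 CPM in *Clec9a* gfp/gfp control libraries (log2 fold change 1.74; limma, adjusted p = 0.0512). In WT all 11 were positive, 6 were called higher, and the median was 0.837, where 5.37% of all genes were called higher. Without WT FL 2 or without WT control 3 limma called 0 genes in that WT comparison. *Clec9a* gfp/gfp FL against WT control called 9 of the 11 higher, with a median of 1.13, where 12.8% of all genes were called higher and, with WT control 2 as the only WT control library, 11 genes in all were called.

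Of the 17 genes that restrain these receptors, which comprise the SOCS proteins, *Cish*, phosphatases, PIAS proteins and *Usp18*, 1 rose in *Clec9a* gfp/gfp under FL and none fell, and the median was −0.184. This was *Socs2*, at 61.20, 60.09 and 123.3 CPM in *Clec9a* gfp/gfp FL and 19.82, 40.83 and 22.03 CPM in *Clec9a* gfp/gfp control libraries (log2 fold change 1.52; limma, adjusted p = 0.0329). None of the 17 was called in WT, where the median was −0.0607. The share of all genes called higher was 2.01% in *Clec9a* gfp/gfp and 5.37% in WT.

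Among 24 ligands 6 were in the table, and *Il4*, *Il13*, *Csf2*, *Il10*, *Ifng* and *Ifnb1*, ligands of the members, were not. *Il15* was at 32.57, 35.98 and 43.49 CPM in *Clec9a* gfp/gfp FL and at 13.43, 15.32 and 21.38 CPM in *Clec9a* gfp/gfp control libraries, without overlap (log2 fold change 1.13; limma, adjusted p = 0.0225). *Osm*, encoding oncostatin M, a ligand whose receptors contain gp130, was at 27.22, 14.94 and 90.49 CPM in *Clec9a* gfp/gfp FL and at 7.80, 12.71 and 5.71 CPM in *Clec9a* gfp/gfp control libraries (1.89; limma, adjusted p = 0.0604). The other 4 were not called, and in WT none of the 6 was. The share of all genes called higher was 2.01% in *Clec9a* gfp/gfp and 5.37% in WT.

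Target genes of the receptors were examined by list, with no list tested as a whole. Of all genes, FL against control called 2.01% higher in *Clec9a* gfp/gfp and 5.37% higher in WT. Of 10 measured targets of IL-4 and STAT6 none was called under FL in either genotype, with medians of 0.256 in *Clec9a* gfp/gfp and 0.0777 in WT. Of 18 targets of interferon-γ 1 rose in *Clec9a* gfp/gfp, *Nlrc5*, which drives MHC class I genes (log2 fold change 0.929; limma, adjusted p = 0.0686), and the median was −0.0138. In WT 3 of the 18 were called higher, with a median of 0.101. Of 19 targets of type I interferon 3 rose in *Clec9a* gfp/gfp, *Isg15* (0.997; limma, adjusted p = 0.0932), *Oas1a* (1.3; adjusted p = 0.0645) and *Ifih1* (0.937; adjusted p = 0.0758), 16 of the 19 were positive, and the median was 0.508, against 2 called, 18 positive and a median of 0.316 in WT. In *Clec9a* gfp/gfp FL 1, 2 and 3 *Isg15* was at 60.86, 49.69 and 115.8 CPM and *Oas1a* at 41.54, 26.66 and 94.12 CPM. *Ifih1* was at 35.89, 24.75 and 55.44 CPM there. *Clec9a* gfp/gfp FL 3 was highest for all 3 genes, and these calls were not tested without it. Of 10 targets of GM-CSF and STAT5 the 2 that rose in *Clec9a* gfp/gfp were *Osm* and *Socs2*, already described, with a median of 0.114, and none was called in WT, with a median of −0.0130. Of 7 measured targets of IL-10, gp130 and STAT3 none was called in *Clec9a* gfp/gfp, with a median of 0.713, and 2 in WT, with a median of 0.602.

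**Figure D5:**
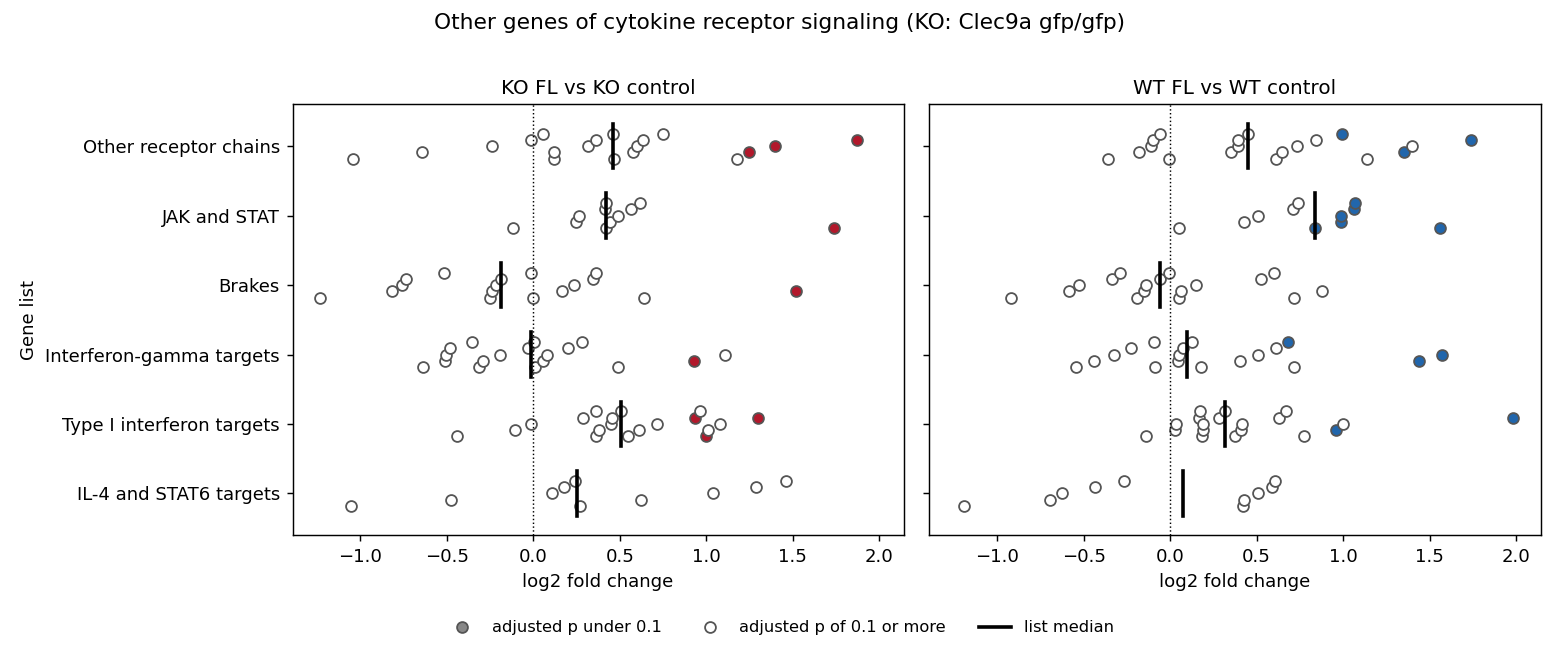
Log2 fold change of every measured gene of 6 lists around the receptors, for FL against control in *Clec9a* gfp/gfp (left, KO) and in WT (right), with genes called at an adjusted p under 0.1 filled and the list median as a bar. For JAKs and STATs 10 of 11 genes lie above 0 in *Clec9a* gfp/gfp and all 11 in WT, with medians of 0.420 and 0.837.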

How the data were processed

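RNA of tumor cDC1s was sequenced in 12 libraries of 4 groups, and the sample titles gave group and replicate number. The authors deposited signal values, which are TMM-scaled counts per M of effective library (CPM). Per the submitters' processing notes, CASAVA 1.8.2, cutadapt 1.3, RSEM 1.2.3 and GRCm38 were used. Libraries were made with a kit that does not mark strand. The rule by which low genes had been removed from the deposited table is not given in the sources used here. Each deposited value equals a whole count plus 0.5 divided by the effective library size.

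Values were taken to log2(value + 1), and the 11255 genes with a mean of at least 1 were entered into limma 3.58.1 (R 4.3.3) with 1 mean per group over 12 libraries, a variance trend and Benjamini-Hochberg adjustment over all genes. The threshold was an adjusted p under 0.1, which the study also used. Fold changes on this scale understate changes of low genes. Intervals are 95% intervals of limma. Levels per kb used the exons of GENCODE M21. Members and gene lists were chosen with earlier results of these data known. Named beside the members were the 5 genes most correlated with *Il4ra* and up to 4 genes called in *Clec9a* gfp/gfp FL against control in each list, those of cell type markers left out. *Il10rb*, *Csf2rb2* and single cell type markers, such as *Fscn1* and *Batf3*, were named outside this rule. The study states 3 independent experiments with 2 to 3 pooled mice each, so p values measure the spread between such pools. The labels do not tie replicate numbers to experiments.

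Other settings changed the pseudocount, the low-value filter or the library scaling, or used limma-voom on the counts computed from the values, fits of only the groups compared, quality weights, a replicate block and leaving out each library. The main test was tested on simulated counts. Of 200 genes changed 2-fold between *Clec9a* gfp/gfp FL and control among 11255 genes, limma recovered 42.5%, and of 200 changed 4-fold 93.0%. Unchanged genes made up 11.5% and 15.1% of its calls. The counts were drawn independently for each gene, without shifts of whole libraries such as those on the first principal component. These shares may therefore not hold for the real libraries.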

Additional observations from a re-analysis of the deposited data

How the results depend on the processing

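The direction and side of the threshold of 1043 of 1130 log2 fold changes of members under other settings stayed as in the fit reported, 51 lost their call, 15 gained one and 21 changed sign. The number of members called in *Clec9a* gfp/gfp FL against control, 2 in the fit reported, was 1 with limma-voom, 4 when only the groups compared were fitted and 5 with sample quality weights, where 388, 985 and 1520 genes in all were called instead of 614. It ranged from 0 to 3 when a library was left out, with 0 and 106 genes in all without *Clec9a* gfp/gfp FL 3. For WT FL against WT control, 4 in the fit reported, it was 1 when only the groups compared were fitted, 0 with WT control 2 as the only WT control library and 0 to 5 with a library left out. In those fits 98 and 1 genes in all were called, against 738. With quality weights 439 were. For *Clec9a* gfp/gfp FL against WT control, 7 in the fit reported, it was 0 with WT control 2 as the only WT control library, where 11 genes in all were called instead of 2554, and 3 to 8 with a library left out. For *Clec9a* gfp/gfp control against WT control it was 0 to 4, the 4 without WT control 2, where 2335 genes in all were called instead of 3, and it was 0 throughout for the interaction and for the genotypes under FL. The lone WT control library was assumed to vary like the other groups, and the causes of these changes were not tested.

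Values that changed sign were small and not called. *Ifngr1* was 0.0665 instead of −0.0582 in WT FL against WT control with equal column totals, and −0.101 instead of 0.0661 in *Clec9a* gfp/gfp FL against WT control with WT control 2 alone. *Il6st* was −0.0339 in *Clec9a* gfp/gfp FL against WT FL with quality weights and −0.00245 in the control comparison with WT control 2 alone. Equal column totals moved the median of all genes in WT FL against WT control to 0.107 and the calls to 964 higher and 37 lower, against 604 and 134, and in the control comparison the median to 0.139. Equal upper quartiles gave 294 higher and 319 lower calls in *Clec9a* gfp/gfp FL against control, against 226 and 388. With a library left out, the ranges that crossed 0 were as follows. In the control comparison they were −0.0697 to 0.498 for *Csf2ra*, −0.105 to 0.248 for *Ifnar2*, −0.000571 to 0.349 for *Ifngr2* and −0.0784 to 0.684 for *Il2rg*. In WT FL against WT control they were −0.207 to 0.438 for *Csf2ra* and −0.326 to 0.126 for *Ifngr1*, and in *Clec9a* gfp/gfp FL against WT control −0.202 to 0.25 for *Ifngr1*. Between the genotypes under FL they were −0.0303 to 0.322 for *Csf2rb*, −0.0934 to 0.479 for *Il4ra* and −0.185 to 0.386 for *Il6st*.

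A replicate block left the number of members called at 2, 4, 0, 0, 7 and 0 in the 6 comparisons. Correlations of same-numbered libraries between *Clec9a* gfp/gfp FL and control were 0.0676, 0.0370 and 0.0159. Between the control groups they were 0.317, −0.146 and −0.0836, and between the WT groups 0.166, −0.196 and −0.148. With this mixed picture the numbers were not taken to pair the libraries. The interaction needs all 4 groups and was not run with only the groups compared. Depth limited *Clec9a* gfp/gfp control 3, where *Il6st* had 96 counts.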
